A study of Rattus norvegicus with 2 samples.

Results

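Pericytes and vascular smooth muscle cells, together called mural cells, wrap the small vessels of the brain. The data below concern 10 genes known as their markers: Acta2, Myh11, Mylk, Tpm2, Myl9, Tagln, Pdgfrb, Rgs5, Cnn1 and Des. They were found by exact gene name among the rat spots of the arrays, and all 10 were present, among 18805 genes with a symbol. They were measured by 13 probes, each spotted once. Of these probes 12 were well above background on both arrays and were counted, which left 9 genes with a difference and Cnn1 without one.

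The tissue was the nucleus tractus solitarius, the brainstem relay of visceral afferents, taken under a microscope over a length reaching 1.0 mm forward and 0.5 mm back of the calamus scriptorius. The animals were 9-week-old Wistar Kyoto (WKY) rats, and the labels name no treatment. One group was RNA of 5 males and the other RNA of 5 females, pooled at 100 ng per animal. A single Cy3 array was run for each pool. With 1 array per sex there was no replicate check and no test, and the spread between rats was lost in pooling. All levels below are the log2 processed signal relative to the 75th percentile of the rat spots of that array, which was a signal of 3441 in the male pool and 3380.25 in the female pool. Differences are female minus male on this log2 scale, and their error is the SD that repeated spots of like brightness showed on these arrays. A whole-tissue sample cannot tell fewer mural cells from less RNA per cell.

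Well above background were 85.5% of rat spots for the males and 87.9% for the females, and 0 were saturated. Of 8 genes of the dorsal hindbrain and its transmitters looked up as a check of the tissue, 7 had a matched probe, Tlx3, Lmx1b, Hoxb5, Slc17a6, Slc32a1, Dbh and Npy, and all 7 were well above background on both arrays. Across all 15562 counted genes the median difference was -0.014, and 0.533% differed by 2-fold or more in either direction.

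Mural cells set the width of vessels with a contractile apparatus. Actin filaments carrying tropomyosin, calponin and transgelin slide along smooth muscle myosin, whose light chain is switched on by the calcium-dependent myosin light chain kinase. Desmin filaments link the apparatus to the cell's edges. Arteriolar smooth muscle holds much of this machinery and capillary pericytes less. Pericytes are recruited and kept by platelet-derived growth factor from endothelium, which acts on the receptor PDGFRβ, and in brain they are known for the G-protein regulator RGS5.

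The results turn on Myh11, Mylk and Tpm2, the only members with a pair of counted probes. Their probes are shown because the agreement within each pair carries what can be said about these genes. The sequences are the array's own 60-base probes, 5′ to 3′, all in lower case because no part is singled out, with positions from the array files on the rat build rn4. The Mylk downstream probe is given by position alone.
Myh11, upstream probe, chr10:769544-770044, plus strand: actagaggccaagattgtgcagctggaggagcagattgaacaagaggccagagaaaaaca
Myh11, downstream probe, chr10:775993-776052, plus strand: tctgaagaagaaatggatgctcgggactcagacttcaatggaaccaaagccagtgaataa
Mylk, upstream probe, chr11:67604486-67604545, minus strand: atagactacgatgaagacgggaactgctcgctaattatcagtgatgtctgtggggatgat
Tpm2, probe of variant Tpm2.1, chr5:59997963-59998563, minus strand: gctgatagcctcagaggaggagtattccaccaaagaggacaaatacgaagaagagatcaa
Tpm2, probe of variant Tpm2.2, chr5:59998176-59998235, minus strand: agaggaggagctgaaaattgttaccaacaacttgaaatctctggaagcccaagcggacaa

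Probes whose genomic interval is longer than their 60 bases cross an intron. By that measure the upstream Myh11 probe spans 501 bases, the Tpm2.1 probe 601, the Myl9 probe 484, the Tagln probe 381 and the Rgs5 probe 1635. The remaining mapped probes cover 60 unbroken bases, and the Acta2 probe is unmapped in the files. The Mylk probes start 1945 bases apart on the transcript and 1945 bases apart on the genome, so no intron separates them; the downstream one lies at chr11:67602541-67602600. The Tpm2.2 probe lies inside the interval of the Tpm2.1 probe, 213 bases from one end and 328 from the other. The members' probes had a median GC content of 45%, as did all rat probes.

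The mural genes were split between the sexes. Relative to the 75th percentile, 4 of 9 counted genes had the higher value in females, where 45.7% of all counted genes did, and 5 of 9 in males, where 54.3% did. Their median difference was -0.018 against -0.014 for all genes, and their median size of difference, regardless of sign, was 0.13 against 0.093. None reached 1.5-fold, a size reached by 2.47% of all genes, 0.9% towards the females and 1.57% towards the males. At 2-fold the shares of all genes were 0.109% and 0.424%, with none of the members. At 1.2-fold, 2 of 9 were higher in the male pool, Mylk and Myh11, where 7.74% of all genes were, and 0 of 9 in the female pool, where 5.74% were. Mylk enters these counts at the midpoint of its probes, which were 1.63-fold and 1.15-fold higher in the male pool. These sets are small, and the shares are descriptions.

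**Figure D1:**
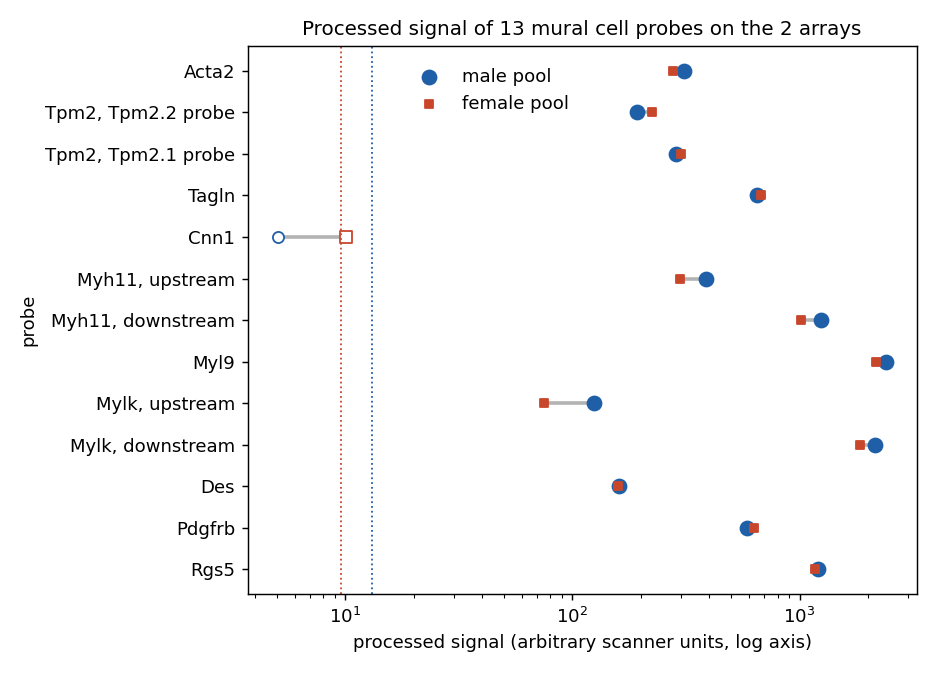
Processed signal (arbitrary scanner units, log axis) of the 13 mural probes in the male pool (large blue circles) and the female pool (small red squares), 1 spot each; open symbols mark the Cnn1 probe, not well above background, and dotted lines the lowest signal well above background on each array. The pair of signals is widest apart for the upstream Mylk probe, at 125 and 74.99, among the counted probes. Brightness differs between probes for reasons of the probe and is not compared across genes.

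Relative to the 75th percentile, the myosin genes Myh11 and Myl9 and the kinase gene Mylk had the lower value in females on each of their 5 probes. This direction was shared by 54.3% of all counted genes, and spike-in scaling turned it for all 3 genes. Myh11 encodes the smooth muscle myosin heavy chain, the motor itself and one of the most specific smooth muscle markers. Its upstream probe gave a processed signal of 387 in the male pool and 296 in the female pool, a difference of -0.36 ± 0.090 (spot SD, 1 spot). Its downstream probe gave 1246 and 1012, a difference of -0.27 ± 0.069. Both probes were thus lower in the female pool, each by about 4 spot SDs (4.02 and 3.97), and they differed from each other by 0.085, less than the 0.11 that the spot SDs allow. Of counted probes in the same brightness class, 5.40% differed by as much as the upstream probe and 5.65% by as much as the downstream probe. As a gene Myh11 stood at -0.32, 1.25-fold higher in the male pool. The downstream probe lies in an outlying band, one of 4 of the 20 equal strips of the array in which the share of dim spots at least 2-fold brighter in the male pool was over 3 times that of the median strip. The upstream probe, outside these bands, had the larger difference.

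Mylk encodes myosin light chain kinase, the enzyme that phosphorylates the regulatory light chain and starts contraction. Its probes start at bases 5737 and 7682 of the transcript. Which products of the gene they read was not looked up, so the values are not those of the kinase form alone. Its upstream probe gave 125 in the male pool and 74.99 in the female pool, a difference of -0.71 ± 0.15, or 1.63-fold. Its downstream probe gave 2153 and 1837, a difference of -0.20 ± 0.069, or 1.15-fold. Both values were lower in the female pool, by 4.70 and 2.93 spot SDs, but they disagreed in size. The gap of 0.50 between them was above the 0.17 that their spot SDs give, and of 2555 genes with 2 counted probes 4.81% had a gap as large. The gene value of -0.46, midway between the pair, therefore stands for neither probe.

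The upstream Mylk probe was the dimmer of the pair. Of 4789 counted probes in its brightness class, 16- to 64-fold below the 75th percentile, 2.30% differed by as much in either direction. For the downstream probe that share was 11.1% of its class. With normexp background correction, which also adds 50 to each signal, the upstream probe moved to -0.43 and the downstream probe to -0.14. The added 50 alone draws the difference of a dim probe towards 0, so this shift is no check on the upstream value. Within 10 rows and columns of the upstream Mylk probe, 358 counted spots had a median difference of 0.016, and 337 around the upstream Myh11 probe had -0.020.

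Myl9 encodes the smooth muscle regulatory light chain, the substrate of the kinase. It gave 2406 in the male pool and 2164 in the female pool, a difference of -0.13 ± 0.069 on its single probe. This was 1.84 spot SDs, and 26.4% of probes of that brightness differed by as much.

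**Figure D2:**
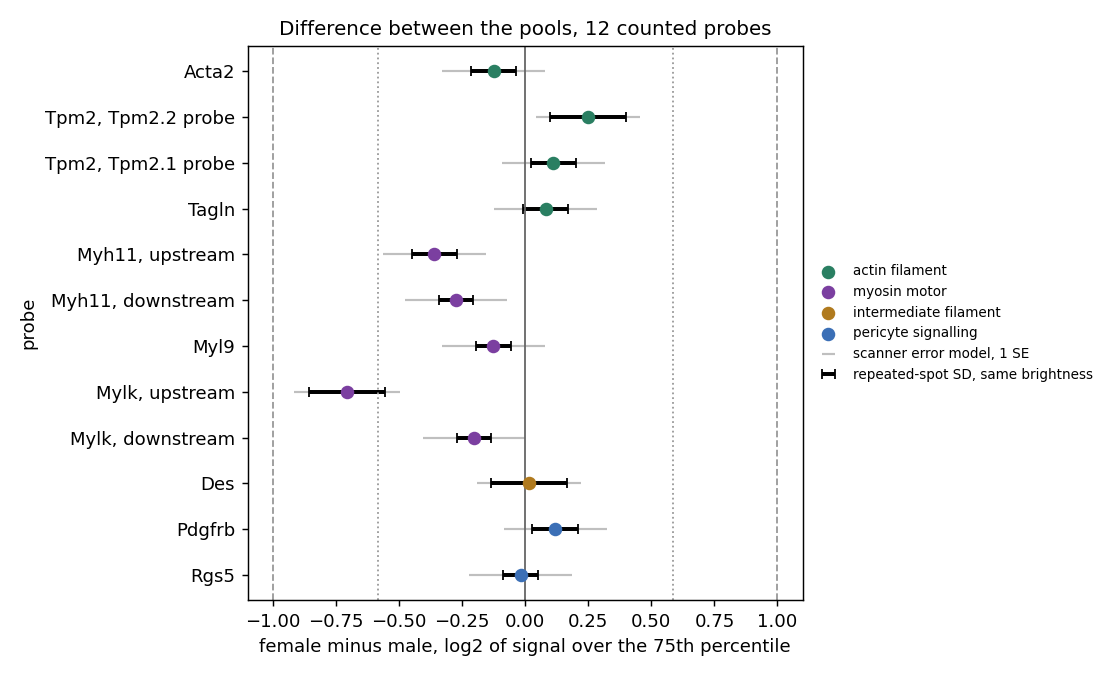
Difference between the pools (female minus male, log2 of signal over the 75th percentile) for the 12 counted probes, coloured by role; black bars are ± 1 SD of repeated spots of like brightness, grey bars ± 1 SE of the scanner software's error model, dotted lines 1.5-fold and dashed lines 2-fold. The 5 probes of Myh11, Myl9 and Mylk lie between -0.71 and -0.13, and the other 7 between -0.13 and 0.25. Mylk, which encodes a kinase, is coloured with the myosin genes.

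The actin filament genes went both ways. Acta2, smooth muscle α-actin, gave 309 in the male pool and 279 in the female pool, a difference of -0.13 ± 0.090. Tpm2 encodes β-tropomyosin, which runs along the actin filament and gates the access of myosin. At 0.18, midway between its probes, it was the member with the largest difference towards the female pool. The Tpm2.1 probe gave 285 and 302, a difference of 0.11 ± 0.090, and the Tpm2.2 probe 192 and 224, a difference of 0.25 ± 0.15. On the brighter Tpm2.1 probe alone the difference was below the 0.12 of Pdgfrb, so that rank depends on the probes. Both Tpm2 probes were higher in the female pool, by 1.25 and 1.65 spot SDs, and differed from each other by 0.14, under the 0.18 of their spot SDs. The probes carry the names of separate splice forms, and no difference between these forms was detectable. Their agreement is therefore not a repeat reading of 1 transcript, as it could be for Myh11. The gene value of 0.18 lies midway between these forms, and which of them mural cells make was not tested.

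Tagln, transgelin, an actin-bundling protein of smooth muscle also known as SM22α, gave 653 in the male pool and 679 in the female pool, a difference of 0.082 ± 0.090. That lies within 1 spot SD. Cnn1, calponin, which restrains the myosin ATPase on actin, gave a signal of 5.07 in the male pool and 10.1 in the female pool. Signals well above background began at 13.1 for the males and 9.59 for the females, and neither Cnn1 spot was called well above background, so no fold is given. Cnn1 was thus not detectable on its probe in either pool, while 82.8% of all genes with a symbol were counted.

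Des encodes desmin, the muscle intermediate filament, which brain pericytes also carry. It gave 160.4 in the male pool and 159 in the female pool, a difference of 0.016 ± 0.15, and 94.2% of probes of its brightness differed by more than this or as much.

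The pericyte signalling genes showed little difference. Pdgfrb, the receptor that recruits pericytes to the vessel wall, gave 588 in the male pool and 627 in the female pool, a difference of 0.12 ± 0.090, or 1.32 spot SDs. The 324 counted spots around its probe had a median of 0.067, the largest in size around the members' probes. Rgs5, which shortens G-protein signals in pericytes, gave 1202 and 1166, a difference of -0.018 ± 0.069. Its probe lies in one of the 4 outlying bands, as does that of Cnn1.

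Repeated spots leave out errors that a probe's neighbours or a labelling reaction share. The scanner software's own error model is wider, with a standard error of 0.20 to 0.21 for the difference of each counted probe. Measured against it, the upstream Mylk probe was the only one of the 12 more than 2 standard errors from 0, at 3.38, and the Myh11 probes lay at 1.76 and 1.35. Of all 2555 genes with 2 counted probes, 56.4% had both on the same side of 0, so the same sign on both probes of Myh11, Mylk and Tpm2 is common on these arrays.

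**Figure D3:**
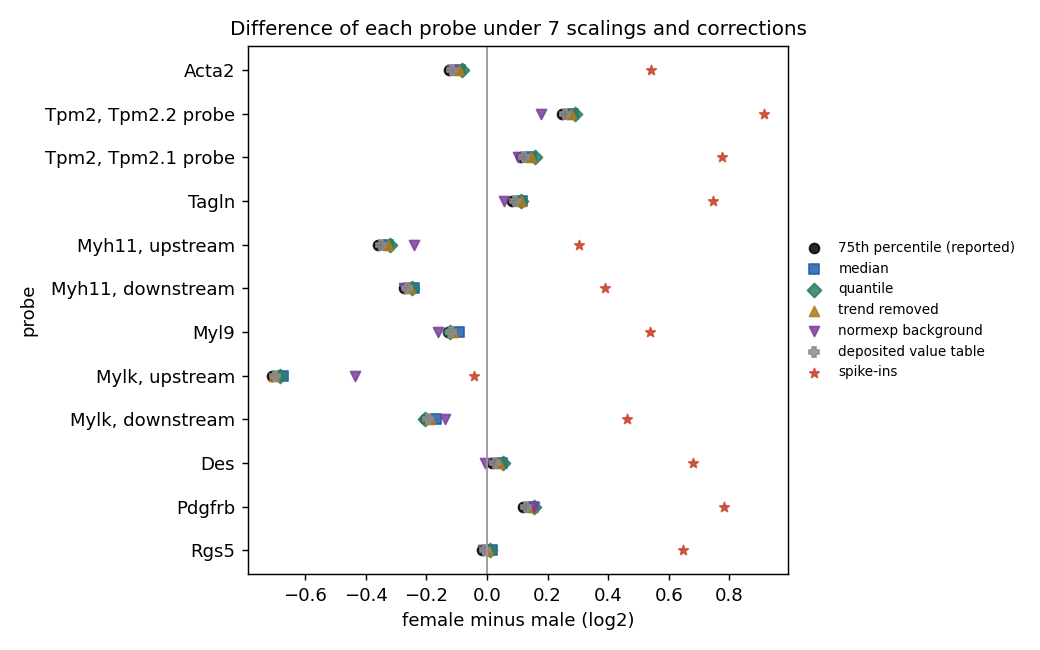
Difference of each counted probe (female minus male, log2) under 7 ways of scaling or correcting the signal. The upstream Mylk probe moves from -0.71 to -0.43 with normexp correction, which adds 50 to each signal and so draws dim differences towards 0. Scaling by spike-in spots, which moves the median of all genes by 0.67, places all probes but the upstream Mylk probe above 0.

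Scaling matters for direction. Relative to the spike-in control spots the median of all genes moved up by 0.67, and all 9 members lay above 0, from 0.21 for Mylk and 0.35 for Myh11 to 0.85 for Tpm2. The order of the members is the same on either scale, since that scaling adds 1 constant. Relative to all genes, the members' median was -0.0033 under both scalings.

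Other genes of the contractile apparatus gave a like picture. In a list of 33 further smooth muscle genes, 28 were counted, 13 with the higher value in females and 15 in males, with a median of -0.0029. None reached 1.5-fold. The largest differences were in Flna, the actin crosslinker filamin A, at -0.34 ± 0.069, in Myl12b, a non-muscle regulatory light chain, at -0.30 with probes at -0.50 and -0.090, in Lmod1, the smooth muscle leiomodin, at 0.26, and in Actg2, the enteric smooth muscle actin, at 0.21 ± 0.15. Lmod1 was among the dimmest genes, with a spot SD of 0.27 and probes at -0.040 and 0.56. Myocd and Srf, which encode the activator and the DNA-binding factor that switch on smooth muscle genes, stood at 0.089 ± 0.27 and -0.043 ± 0.069. The Srf probe lies in an outlying band, as do probes of Myl12b and Lmod1. Myocd was dim, at a signal of 47.1 and 49.2. These last 2 were named after their values were seen.

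Further genes listed for pericytes had a median of -0.093 over 22 counted of 24, with 9 higher in females and 13 in males. Which cells of the tissue gave these signals was not tested. The largest differences were all towards the male pool: Gper1, a membrane oestrogen receptor, at -0.55 ± 0.090, the purinergic receptor gene P2ry14 at -0.38 ± 0.15, the gap junction gene Gja4 at -0.33 ± 0.090 and the calsequestrin gene Casq2 at -0.31 ± 0.090. Probes of Gper1, P2ry14 and Gja4 lie in the outlying bands. Without these bands the median of the list was 0.027, on the other side of 0.

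Genes of growth, recruitment and fate of mural cells had a median of 0.059 over 30 counted genes, 20 of them higher in the female pool. Smad3, a transducer of transforming growth factor β, differed by 0.73 and was dim, at signals of 17.98 and 29.3, with a spot SD of 0.27. Its receptor gene Tgfbr2 stood at 0.41 from probes at -0.32 and 1.14 that disagreed, and Tgfbr3 at 0.33 with the same spot SD. Smad7, an inhibitor of the pathway, was bright and differed by 0.23 ± 0.069, on a probe in an outlying band. The ligand gene Pdgfb was dim and stood at -0.060 ± 0.27, within its error; it too was named after its value was seen.

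**Figure D4:**
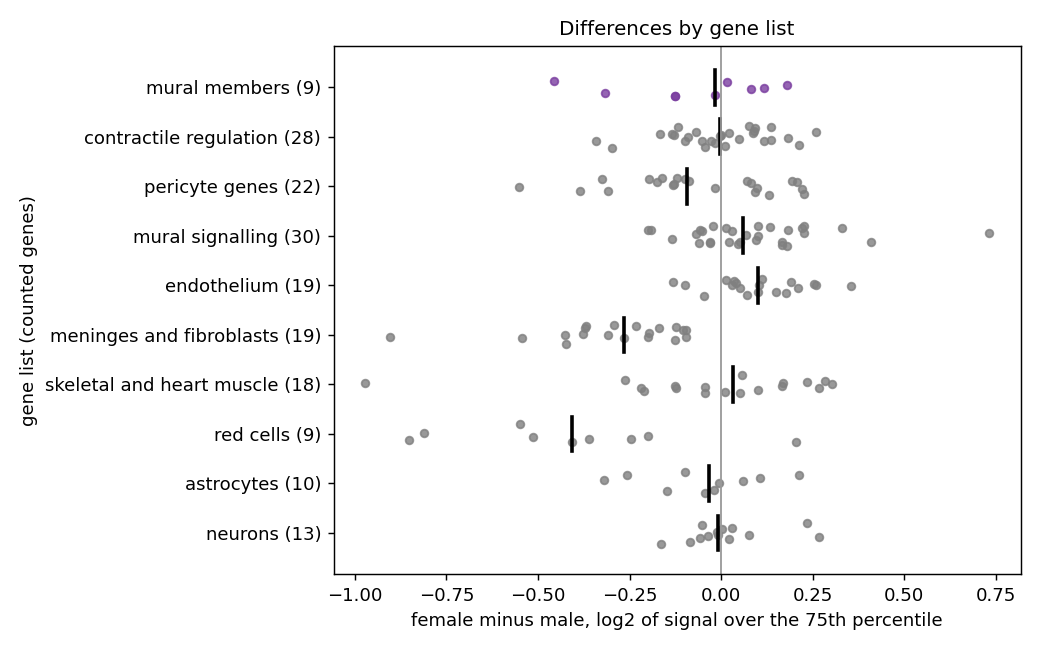
Differences (female minus male, log2 of signal over the 75th percentile) of the counted genes of each list, 1 point per gene with vertical scatter for display only, and black bars at the list medians; the number of counted genes stands in brackets. The 9 mural genes (top) centre on -0.018, between the endothelial genes at 0.10 and the meningeal and fibroblast genes at -0.26.

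Genes of neighbouring cells in the vessel wall and its surroundings are given beside these values, since several mural genes are also active in fibroblasts or muscle. Of 19 endothelial genes 16 had the higher value in females, and their median was 0.10, led by the junction gene Tjp1 at 0.35 and the glucose transporter gene Slc2a1 at 0.26, with 5 of its 10 spots in outlying bands. All 19 counted genes of meninges and fibroblasts had the lower value in females, and their median was -0.26, led by the collagen gene Col1a2 at -0.90 and the retinoic acid enzyme gene Aldh1a2 at -0.54. Red cell genes had a median of -0.41 over 9, with Slc4a1 at -0.85 and Ahsp at -0.81. With spike-in scaling these medians were 0.77, 0.40 and 0.26.

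Genes of skeletal and heart muscle, tissues that also use desmin and β-tropomyosin, had a median of 0.032 over 18 counted of 23 listed, with 10 higher in the female pool. Ckm, muscle creatine kinase, stood at -0.97, dim and in an outlying band, and Mb, myoglobin, at 0.30 ± 0.069. The astrocyte median was -0.033, with Gfap at -0.32 (3 of 10 spots in outlying bands) and Aqp4 at -0.26 (probes from -0.32 to 0.017). The neuron median was -0.0072, with the glycine transporter gene Slc6a5 at 0.27 and Snap25 at 0.24 (2 of 11 spots in these bands). The part of any of these cell types in the values of the mural genes was not tested.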

How the data were processed

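The deposited intensity values are single-colour scanner output of Agilent Feature Extraction, version 10.7.3.1 per the file headers and 9.1 per the submitters' processing notes, with background subtracted and trends over the array removed, and with no scaling between arrays. The deposited value table holds the same intensity times 1 factor per array. Per the labels' protocols, 150 ng of pooled RNA with an integrity number above 7 was labelled with Cy3.

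The log2 signal was set relative to the 75th percentile of rat spots, the 430 spots with an outlier flag were left out, spots of a probe were averaged, and a gene took the median of its probes well above background on both arrays (24532 probes). Symbols came from the GRCr8 table by accession for 18758 probes, by another accession for 1035 and from the array files for 2871; 7703 had none. Spot error is the pooled SD of the difference across spots of repeated probes, 0.27, 0.15, 0.090 and 0.069 in brightness classes split at 64-, 16- and 4-fold below the 75th percentile. The number of arrays limits the precision. All 10 members were named, and from each other list the genes with the largest difference, 4 from the smooth muscle, pericyte and signalling lists and 2 from the rest. The members and lists were chosen with earlier results of these data known. Steps were tested on simulated data with independent spot noise and planted differences larger than that of any counted member. That test does not bear on differences of the members' size. R 4.3.3 with limma 3.58.1 and Python 3.11.15 were used. Alternatives were 5 scalings or corrections, the value table, filters, probe choice and array bands. Normexp was run with an offset of 50 added to each signal.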

Additional observations from a re-analysis of the deposited data

How the results depend on the processing

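No paired analysis was possible because each sex has 1 array. The number of members higher in the female pool was 4 of 9, and it stayed from 3 to 5 except with spike-in scaling, which gave 9 of 9, and among probes brighter than the median probe, which left 4 members with 0 higher. The members' median of -0.018 was 0.017 with median scaling, 0.65 with spike-ins, -0.17 among the brighter probes and -0.055 without the outlying bands. The number of members past 1.5-fold was 0, and it was 5 with spike-ins, 1 without a background filter, which adds Cnn1 from signals at background, and 2 at the 1.2-fold threshold. Spike-in scaling turned Myh11 to 0.35, Mylk to 0.21, the meningeal list to 0.40 and the red cell list to 0.26. It also turned the medians of the pericyte list from -0.093 to 0.57, the smooth muscle list from -0.0029 to 0.66, astrocytes from -0.033 to 0.63 and neurons from -0.0072 to 0.66. Genes 2-fold or more higher in the female and male pool numbered 17 and 66. With spike-ins they numbered 563 and 18. With normexp, whose added offset of 50 draws dim differences towards 0, they numbered 5 and 18. They numbered 212 and 158 when well above background on 1 array sufficed, and 436 and 275 with no filter. Among the brighter probes they numbered 2 and 8, and without the bands 39 on the male side. With spike-ins left aside, Acta2, Myh11, Mylk, Tpm2, Myl9, Tagln and Pdgfrb kept their direction in every alternative that gave them a value. Rgs5 did so in 7 of 10 and Des in 9 of 10. Most of these alternatives could not turn a sign. A member with 1 probe keeps its value under the filter, flag, band and probe-choice alternatives, or drops out. Median scaling and the value table add 1 constant, 0.035 and 0.010. Only quantile normalization, removal of the trend with brightness and normexp alter such members individually. Mylk ranged from -0.46 to -0.20, the latter with its brightest probe alone. Signals near background limit Cnn1, Myocd, Smad3 and Tgfbr2.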
